A study of Mus musculus and Mus musculus musculus x Mus musculus castaneus with 52 samples.

Results

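Klf2, Klf4 and Klf5 are 3 members of the Krüppel-like factor (KLF) family, here followed through 24 RNA-sequencing libraries of mouse pluripotent stem cells. They were taken as the 3 rows with those gene symbols among the 16687 genes of the deposited expression table, and all 3 were above the filter on low values in every comparison. KLF proteins are zinc-finger transcription factors that bind GC-rich and CACCC-type DNA. In mouse embryonic stem cells Klf2, Klf4 and Klf5 are known as overlapping factors of the naive state, the ground state of pluripotency that resembles the early epiblast. The cytokine LIF acts through its receptor, Jak kinases and Stat3, and Klf4 is a known target of Stat3. ERK signalling opposes the naive state and is known to act against Klf2 protein. Klf4 is also one of the factors commonly used to reprogram somatic cells, and Klf5 has a further known role in the trophectoderm.

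The study set cells with 2 X chromosomes against cells with 1. Its induced pluripotent stem cells (iPSCs) were 3 female lines (LV20, LV21 and LV22) and 3 male lines (LV4, LV8 and LV16), each sequenced at passage 7 (P7) and passage 13 (P13). The labels name the female lines XX at P7 and XO, with 1 X, at P13. Wild-type embryonic stem cells (ESCs) of the CM series were sequenced at passage 5, CM1 and CM2 being XX (2 lines) and CM3 and CM7 being XY (2 lines). A withdrawal experiment used 1 wild-type XX line (F121), 1 wild-type XY line (V6.5) and 2 clones of XX cells labelled Dusp9+/-, each without feeders, in serum with LIF (0 h) and after 24 h in serum medium without LIF. The labels give no medium for the RNA of the iPSC and CM lines, and name male feeder cells with serum and LIF for the chromatin samples of the study. Dusp9 is an X-linked phosphatase that acts on ERK. The F121, Dusp9+/- and CM cells came from crosses of Mus musculus musculus with castaneus, and the V6.5 and LV cells were Mus musculus. Each line or clone gave 1 library per passage or time, so F121 and V6.5 have no replicate. The labels name the lines as separate, not the animals behind them, so p-values measure the spread between these lines. The labels do not describe the factors or the vector used for reprogramming, so reads from an introduced Klf4 and from the mouse's own gene cannot be told apart. The libraries are bulk RNA, in which fewer cells of a type and less RNA per cell cannot be told apart.

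Each library held between 8309171 and 14245900 reads assigned to genes. The 8 pluripotent stem cell markers Pou5f1, Sox2, Nanog, Zfp42, Esrrb, Utf1, Dppa5a and Tdgf1 were detected in every group, with summed levels of 2330 to 4160 CPM (read counts scaled to a common library size). The 20 fibroblast and feeder markers were detected too, at summed levels of 257 to 2560 CPM, and their levels are given beside the results they moved with. X-linked output, taken as the median of X-linked genes less that of autosomal genes, set 2 libraries apart from their groups. It was -0.08 in LV21 at P7 against 0.39 and 0.59 in LV20 and LV22, and -0.14 in LV22 at P13 against -0.42 and -0.55 in LV20 and LV21. Differences in Klf2, Klf4 and Klf5 that rest on these 2 libraries are therefore also given without them. Results on other single genes, gene lists and correlations in the iPSCs are given with them. Among XX ESCs, X-linked output was 0.25 and 0.34 in F121 at 0 h and 24 h. It was 0.43 and 0.45 in CM1 and CM2, and 0.52 to 0.61 in the clones labelled Dusp9+/-. The part of X-linked output in the ESC differences was not tested.

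The genes lie on 3 chromosomes. In the mouse build GRCm38.p6, RefSeq places the protein-coding gene Klf2 at chr8:72319062-72321654 on the plus strand, Klf4 at chr4:55527137-55532475 on the minus strand and Klf5 at chr14:99298691-99313412. The 250 bases before the start sites of Klf2 (chr8:72318812-72319061, plus strand) and Klf4 (chr4:55532476-55532725, minus strand) are shown from RefSeq on that build, as the 2 members with a promoter entry in the table used, to show the KLF-type letter strings next to these start sites. They are written 5′ to 3′ with the last base next to the start site. Capitals mark the GC box GGGCGG on either strand, a core letter string of KLF and SP binding sites.
Klf2: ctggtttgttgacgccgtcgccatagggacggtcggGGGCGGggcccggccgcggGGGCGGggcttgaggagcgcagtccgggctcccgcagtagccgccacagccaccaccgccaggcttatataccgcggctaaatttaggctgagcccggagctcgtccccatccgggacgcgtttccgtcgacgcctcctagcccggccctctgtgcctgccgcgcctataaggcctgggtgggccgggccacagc
Klf4: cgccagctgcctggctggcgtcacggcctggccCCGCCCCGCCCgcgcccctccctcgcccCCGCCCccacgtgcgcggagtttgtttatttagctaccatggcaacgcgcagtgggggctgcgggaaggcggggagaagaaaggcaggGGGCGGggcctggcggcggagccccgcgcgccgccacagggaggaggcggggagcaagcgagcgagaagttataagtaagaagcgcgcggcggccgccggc

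The Klf2 window held 2 matches to the GC box, at positions -214 and -195 from the start site. The Klf4 window held 4, at -217, -212, -189 and -101, of which the matches at -217 and -212 overlap by a base. Of 32851 RefSeq promoter windows of this length, 32.7% held at least 1 match. The string CACCC, the other classic KLF motif, was found on either strand once in the Klf2 window and not in the Klf4 window, against 52.0% of all windows. The STAT string TTCNNNGAA was in neither, against 7.02% of all windows. The windows were 71.2% and 74.0% G or C, against a median of 52.4%. These are matches of letters in a short window and say nothing about binding.

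Outside the 24 h time of LIF withdrawal, all 20 libraries held the 3 genes at a high level. Klf2 ranged from 7.16 to 8.10 log2 CPM over those 20 libraries, Klf4 from 6.92 to 9.11 and Klf5 from 6.67 to 8.33. The 4 libraries taken 24 h after LIF was removed held 5.56 to 6.44 for Klf2, 4.14 to 5.14 for Klf4 and 6.34 to 6.90 for Klf5. All 4 were below all 20 others for Klf2 and Klf4, while for Klf5 the ranges overlapped. The fewest reads behind any of these values were the 192 reads of Klf4 in V6.5 at 24 h, so none rests on a handful of counts. Levels are compared between samples for 1 gene at a time, because transcript lengths were not used here.

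The order of the groups differed between the genes. For Klf2 the highest 5 group means, from 8.02 ± 0.07 log2 CPM (SD, n = 3) in XO iPSCs to 7.83 ± 0.14 (n = 3) in XY iPSCs at P13, had overlapping ranges at each step. The XX CM ESCs followed at 7.66 ± 0.12 (n = 2), and F121, the Dusp9+/- clones and V6.5 at 0 h came next at 7.40, 7.35 and 7.22. For Klf4 the XX iPSCs at P7 stood first at 8.92 ± 0.26 (n = 3), separated from the XY iPSCs at P7 at 8.45 ± 0.16 (n = 3). The XX CM ESCs held 8.38 of Klf4 in log2 CPM, within the spread of that second group. XO and XY iPSCs at P13 overlapped at 8.14 ± 0.17 and 7.97 ± 0.03 (n = 3 each), and V6.5, F121 and the XY CM ESCs lay close together at 7.76, 7.65 and 7.63. For Klf5 the order turned over. F121 at 0 h was highest at 8.33, followed by the XX CM ESCs at 8.16, V6.5 at 7.84 and the XY CM ESCs at 7.78 ± 0.10 (n = 2). The iPSCs came after the wild-type ESCs not deprived of LIF, with XY iPSCs at P7 lowest among the groups outside withdrawal at 6.79 ± 0.21 (n = 3).

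**Figure D1:**
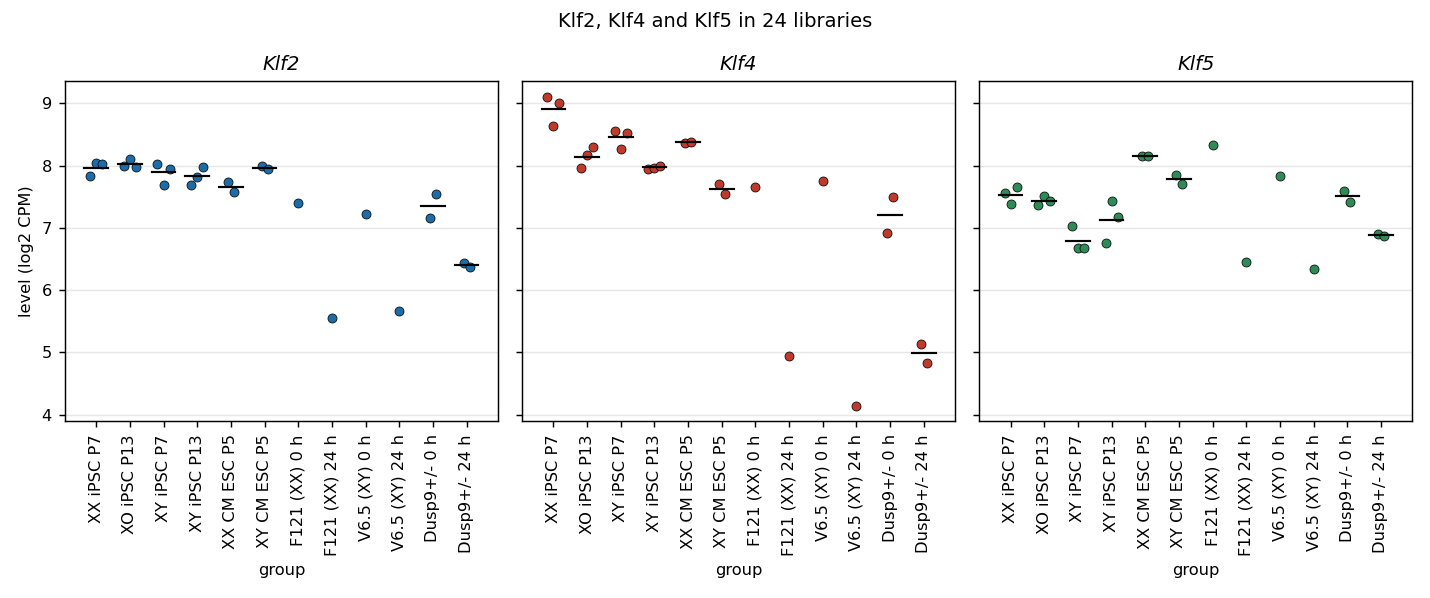
Level of Klf2, Klf4 and Klf5 in log2 CPM (vertical axis) in each of 24 libraries (points) by group (horizontal axis), with the group mean as a bar where a group has more than 1 library; Dusp9+/- is the label of the clones. The libraries without LIF (24 h) sit below all others for Klf2 and Klf4, XX iPSCs at P7 are highest for Klf4, and XY iPSCs at P7 are the lowest group for Klf5 apart from V6.5 and F121 at 24 h.

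The withdrawal experiment sets cells after 24 h without LIF against cells at 0 h with it. No library was kept in LIF for the 24 h, so loss of LIF, time and handling cannot be told apart. Klf2, Klf4 and Klf5 were lower at 24 h in all 4 lines, and the fall of Klf4 was the largest of the 3 in each. Klf4, the Stat3 target, went from 7.65 to 4.95 log2 CPM in F121, from 7.76 to 4.14 in V6.5, from 6.92 to 5.14 in clone 1 and from 7.50 to 4.83 in clone 2. The linear falls were 6.47-fold in F121, 12.3-fold in V6.5, 3.44-fold in clone 1 and 6.38-fold in clone 2, and the levels at the 2 times did not overlap. The changes of single clones take the clone numbers as labelled, which may be exchanged between the times, while the drop from either clone at 0 h to either at 24 h does not depend on them. Across the 8 libraries, with genotype in the model, Klf4 fell by 2.69 ± 0.24 on the log2 scale (limma, SE, adjusted p = 0.000638). Klf2 went from 7.40 to 5.56 in F121, from 7.22 to 5.67 in V6.5, from 7.16 to 6.44 in clone 1 and from 7.54 to 6.38 in clone 2. The Klf2 levels at 0 h and 24 h did not overlap either, and the drops were smaller in the clones than in F121 and V6.5. Klf2 fell by 1.32 ± 0.17 (limma, adjusted p = 0.00152). Klf5 went from 8.33 to 6.45 in F121, from 7.84 to 6.34 in V6.5, from 7.60 to 6.90 in clone 1 and from 7.41 to 6.87 in clone 2. Its levels at the 2 times also stayed apart within this experiment, by a narrower margin in the clones. Klf5 fell by 1.16 ± 0.21 (limma, adjusted p = 0.00567). These 3 of 3 calls stand in a comparison in which 32.7% of 14335 genes tested were called. Each held with the line as a replicate block and with any 1 library left out.

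Other genes of the LIF pathway moved in the same experiment. Of 15 listed genes of the LIF receptor and Stat3 pathway, 7 fell and 3 rose, and the list's median change was -0.34 against 0.023 for all genes. Socs3, a feedback inhibitor that Stat3 induces, fell by 2.69 ± 0.17. Stat3 itself changed by -1.33 ± 0.10, the kinase Pim3 by -0.68 ± 0.09 and the receptor-associated kinase Jak2 by -0.75 ± 0.11. The list called naive-network here holds 17 genes bound by KLF factors or acting with them, Pou5f1, Sall4 and Mycn included. Of these, 10 fell and 1 rose, with a median change of -0.63. The T-box factor Tbx3 changed by -3.08 ± 0.28, Tfcp2l1 by -2.34 ± 0.21, Nanog by -1.64 ± 0.15 and Tcl1 by -1.58 ± 0.11. Of 11 formative and primed genes, those of the state that follows naive pluripotency, 9 rose and 0 fell, with a median change of 1.58. Sall2 rose by 2.49 ± 0.26, Lef1 by 1.91 ± 0.23, Sox3 by 1.65 ± 0.21 and the DNA methyltransferase Dnmt3b by 1.57 ± 0.12. These are limma estimates with SE on the log2 scale, with adjusted p-values between 0.000218 (Socs3) and 0.00259 (Jak2).

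In the ERK pathway, 5 of 19 genes rose and 1 fell, with a median change of 0.21, a share of calls near the 32.7% of all genes. The feedback regulators Spry4 and Dusp6 rose by 1.27 ± 0.09 and 1.18 ± 0.13, and the receptor Fgfr2 by 1.05 ± 0.12, while Egr1 fell by 2.05 ± 0.34. Immediate-early genes, which respond to stimulation and handling within minutes, fell in 14 of 19 cases, with a median change of -0.88. Among those 14, Fosb changed by -7.09 ± 0.32, Fos by -5.41 ± 0.34 and Atf3 by -2.92 ± 0.22. Fibroblast and feeder markers moved as well, with 10 of 20 lower at 24 h and a median change of -1.11. Their summed level went from 1400 to 640 CPM in F121 and from 1520 to 589 CPM in V6.5, but stood at 257 and 535 CPM with LIF and at 330 to 597 CPM without it in the clones. Lum, 1 of the 20, had 0 reads in V6.5 at 24 h. Klf4 levels in the clones were 6.92 and 7.50 at 0 h and 5.14 and 4.83 at 24 h. The part of the feeder and immediate-early genes in the KLF changes was not tested.

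**Figure D2:**
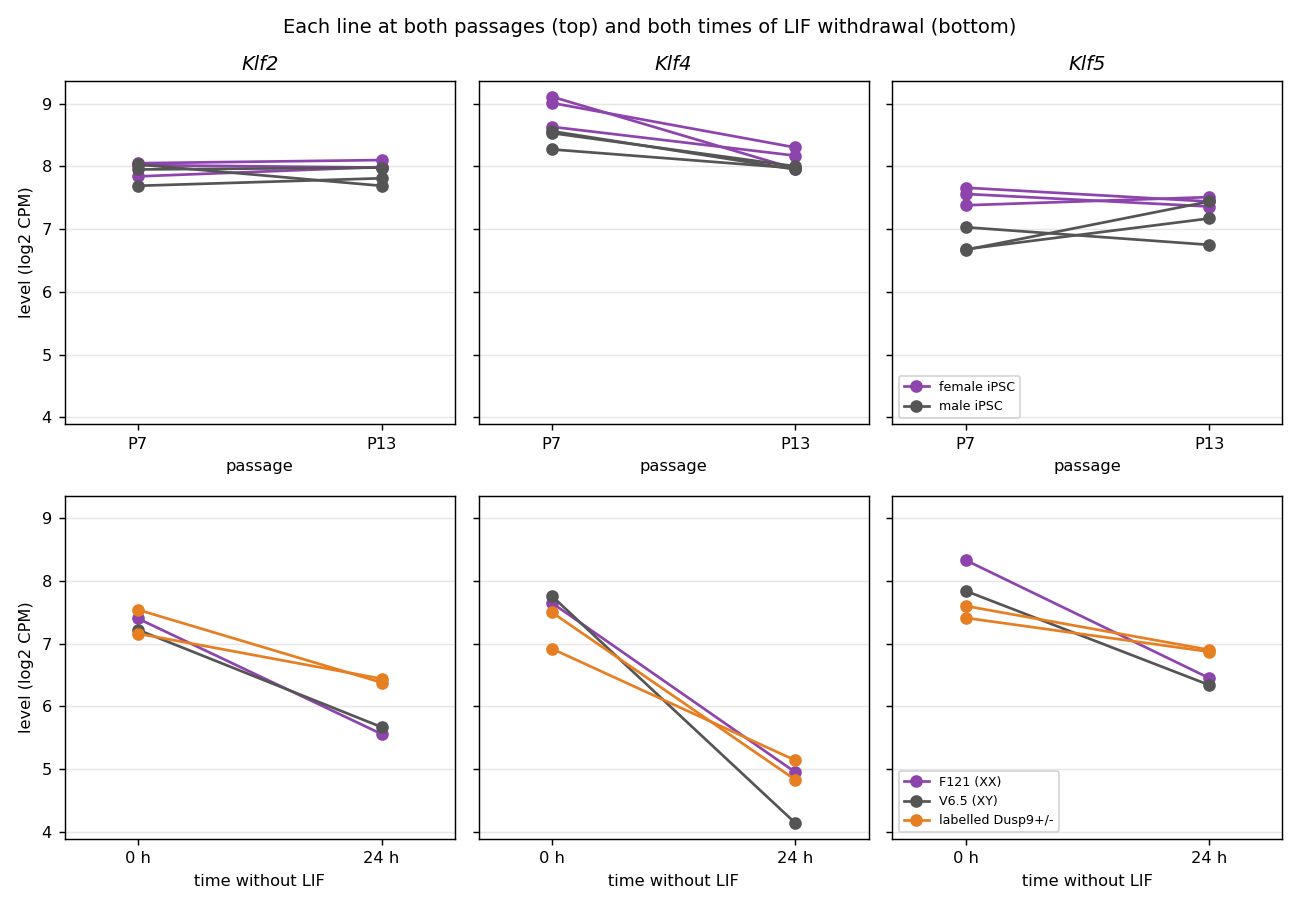
Level in log2 CPM (vertical axis) of Klf2, Klf4 and Klf5 in each line at passage 7 and 13 (top, iPSCs) and at 0 h and 24 h without LIF (bottom, ESCs), with a line joining the 2 libraries of each cell line. Klf4 was lower at P13 in all 6 iPSC lines and fell most steeply without LIF, from 7.76 to 4.14 in V6.5.

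At P7 the comparison of XX with XY iPSCs asks how cells with 2 X chromosomes differ from cells with 1 at early passage. Klf4 and Klf5 were higher in the XX lines, and Klf2 did not pass the test. Klf5 held 7.56 log2 CPM in LV20, 7.38 in LV21 and 7.66 in LV22, against 6.67 in LV4, 6.68 in LV8 and 7.03 in LV16. Every XX line was above every XY line, and the XY line closest to them was LV16. The difference in Klf5 was 0.74 ± 0.15 (limma, SE, adjusted p = 0.0168, n = 3 against 3). Klf4 held 9.11 in LV20, 8.63 in LV21 and 9.01 in LV22, against 8.27 in LV4, 8.53 in LV8 and 8.56 in LV16. Here too the groups did not overlap, but LV21 was only slightly above the XY lines. The difference in Klf4 was 0.46 ± 0.12 (limma, adjusted p = 0.0452). Klf2 held 7.84, 8.05 and 8.02 in LV20, LV21 and LV22 and 7.69, 7.95 and 8.03 in LV4, LV8 and LV16, so that the groups overlapped. Its difference was 0.08 ± 0.10 (limma, adjusted p = 0.707). Thus 2 of 3 members were called where 4.78% of 13978 genes were.

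With those 2 libraries (LV21 at P7, LV22 at P13) left out, the difference was 0.61 ± 0.10 for Klf4 (limma, adjusted p = 0.0016) and 0.81 ± 0.17 for Klf5 (limma, adjusted p = 0.00632). For Klf2 it was 0.0385 ± 0.115 (limma, adjusted p = 0.872). The call for Klf4 was lost when any 1 of LV20, LV22, LV4, LV8 or LV16 at P7 was left out, with differences of 0.36, 0.42, 0.37, 0.50 and 0.52. The call for Klf5 was lost without LV20, LV22, LV4 or LV8 at P7, with differences of 0.72, 0.67, 0.68 and 0.68. Of the 17 naive-network genes 4 were higher in XX iPSCs at P7 and 0 lower, with a median difference of 0.39 against 0.0036 for all genes. They were Tbx3 (1.98 ± 0.31), Tcl1 (1.35 ± 0.35), Prdm14 (1.24 ± 0.33) and Pou5f1 (0.34 ± 0.08). Of these, the call for Tbx3 held in 12 of 12 alternatives, and those for Tcl1, Prdm14 and Pou5f1 were lost in 7, 8 and 6 of the 12. None of the 15 LIF-pathway genes was called, with a median difference of 0.0074. In the ERK pathway Dusp9 was higher by 1.01 ± 0.26 and the kinase gene Mapk3 lower, with a difference of -0.53 ± 0.11, and the other 17 of 19 genes were not called. These 2 calls were lost in 8 and 4 of 12 alternatives. Fibroblast and feeder markers summed to 541 to 939 CPM in XX and 575 to 679 CPM in XY iPSCs at P7, with 0 of 20 called.

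At P13 the female lines, now labelled XO, were compared with the XY lines at the same passage. Klf4 held 7.96, 8.17 and 8.30 log2 CPM in LV20, LV21 and LV22 and 7.97, 8.00 and 7.95 in LV4, LV8 and LV16, so the 2 groups overlapped. Klf5 held 7.36, 7.51 and 7.44 in the same female lines and 7.44, 7.17 and 6.75 in the male lines, again with overlap. Klf2 held 7.99, 8.10 and 7.98 in the female lines and 7.81, 7.98 and 7.69 in the male lines. The differences were 0.20 for Klf2, 0.17 for Klf4 and 0.31 for Klf5, and 0 of 3 passed the test (limma, adjusted p = 0.999 for each). In this comparison 0.0286% of genes were called, 4 in number, with 376 at an unadjusted p under 0.05 and 4 called by voom. With LV21 (P7) and LV22 (P13) left out the 3 differences were 0.22, 0.09 and 0.31. Leaving out 1 library moved Klf2 to between 0.13 (without LV16 at P13) and 0.27 (without LV8), Klf4 to between 0.09 (without LV22) and 0.26 (without LV20), and Klf5 to between 0.13 (without LV16) and 0.48 (without LV4).

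Between P7 and P13, Klf4 fell in the female and in the male iPSC lines, and it was lower at P13 in 6 of 6 lines. The female lines are labelled XX at P7 and XO at P13, so passage and loss of an X cannot be told apart in them. In the female lines the changes in Klf4 were -1.16 in LV20, -0.45 in LV21 and -0.71 in LV22. In the male lines they were -0.30 in LV4, -0.52 in LV8 and -0.61 in LV16. The highest P13 level of Klf4, 8.30 in LV22, was above the lowest P7 level, 8.27 in LV4, but within each sex the passages did not overlap. The mean change in Klf4 was -0.77 ± 0.12 in the female lines (limma, adjusted p = 0.00575) and -0.48 ± 0.12 in the male lines (limma, adjusted p = 0.0223). Klf5 showed no common direction. It rose by 0.13 in LV21 and went by -0.22 and -0.20 in LV22 and LV20, and it changed by 0.77 in LV4, 0.49 in LV8 and -0.28 in LV16. Neither mean change in Klf5 passed the test, at -0.10 ± 0.15 in the female lines (limma, adjusted p = 0.727) and 0.33 ± 0.15 in the male lines (limma, adjusted p = 0.16). Klf2 changed by between -0.34 and 0.15 in any line, with means of 0.05 ± 0.10 and -0.06 ± 0.10 (limma, adjusted p = 0.782 and 0.73).

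So 1 of 3 members was called in each sex, where 9% of genes were called in the female and 13% in the male lines. With LV21 (P7) and LV22 (P13) left out, the change in Klf4 was -0.997 ± 0.110 in the female lines. The changes in Klf2 and Klf5 there were 0.12 ± 0.13 and -0.17 ± 0.18 without them. In the male lines the call for Klf4 was lost without LV4 or LV8 at P13 (-0.48 and -0.49) or without LV8 or LV16 at P7 (-0.44 and -0.43). The male change in Klf5 became 0.51 ± 0.13 (limma, adjusted p = 0.019) without LV16 at P13. The female change less the male change was 0.12 for Klf2, -0.29 for Klf4 and -0.42 for Klf5, and none passed the test (limma, adjusted p = 0.842, 0.624 and 0.579). With LV21 (P7) and LV22 (P13) left out, it was 0.18 ± 0.16 for Klf2, -0.52 ± 0.14 for Klf4 and -0.50 ± 0.23 for Klf5 (limma, adjusted p = 0.61, 0.0711 and 0.284). In the fit of all libraries 0% of genes were called for this difference, with 1242 at an unadjusted p under 0.05 and 0 called by voom.

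Counts for other sets are read against the 9% and 13% of all genes called between P7 and P13 in the female and male lines. Immediate-early genes fell in 11 of 19 cases in the female and 9 of 19 in the male lines, and their summed level was 2230 to 3780 CPM over the 6 libraries at P7 and 1010 to 2510 CPM at P13. Jun changed by -2.35 ± 0.26 in the female and -1.98 ± 0.26 in the male lines. The Stat3 feedback inhibitor Socs3 changed by -1.11 ± 0.18 and -1.31 ± 0.18. Of the 15 LIF-pathway genes, 3 fell and 2 rose in the female lines and 4 fell and 1 rose in the male lines, the kinase genes Pim1 and Pim3 among those that fell and Gbx2 among those that rose. Of 17 naive-network genes, 2 rose (Mycn and Sall4) and 1 fell in the female lines, where 4.32% of all genes rose and 4.68% fell. In the male lines 3 rose (Mycn, Pou5f1 and Zfp42) and 0 fell, where 7.23% of all genes rose and 5.82% fell. Nanog fell by 0.94 ± 0.23 in the female lines, while Pou5f1 rose by 0.44 ± 0.08 in the male lines. The female calls for Nanog, Mycn and Sall4 were lost in 5, 4 and 5 of 12 alternatives. In the male lines the call for Pou5f1 held in 12 of 12, and those for Mycn and Zfp42 were lost in 2 and 3. Fibroblast and feeder markers rose in 9 of 20 cases in the female and 14 of 20 in the male lines, from summed levels of 541 to 939 CPM at P7 to 907 to 2560 CPM at P13. The 6 macrophage markers summed to 29.7 to 68.6 CPM at P7 and 54.7 to 158 CPM at P13. The part of these sets in the change of Klf4 was not tested.

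In wild-type ESCs before any withdrawal of LIF, the comparison of 3 XX with 3 XY lines was fitted with the experiment (CM or withdrawal) as a term. Klf5 was higher in XX lines, at 8.16 in CM1 and 8.15 in CM2 against 7.85 in CM3 and 7.71 in CM7, and at 8.33 in F121 against 7.84 in V6.5. All 3 XX lines were above all 3 XY lines. F121 came from a cross with castaneus and V6.5 did not, so X complement and strain cannot be told apart in that pair. The difference in Klf5 was 0.41 ± 0.08 (limma, adjusted p = 0.0156), and the call was lost without CM1 (0.42) or CM2 (0.43). Klf4 held 8.37 and 8.38 in CM1 and CM2 against 7.71 and 7.55 in CM3 and CM7, whereas F121 was level with V6.5 at 7.65 against 7.76. Its difference over both experiments was 0.46 ± 0.16 and did not pass the test (limma, adjusted p = 0.128). Within the CM lines alone it was 0.75 ± 0.08 (limma, adjusted p = 0.00035). Klf2 held 7.74 and 7.58 in CM1 and CM2, below the 7.99 and 7.95 of CM3 and CM7, and 7.40 in F121 against 7.22 in V6.5. Its difference over both experiments was -0.14 (limma, adjusted p = 0.484), and -0.31 ± 0.09 within the CM lines (limma, adjusted p = 0.0426). With both experiments 1 of 3 members was called, where 7.19% of 14193 genes were. Leaving out F121 or V6.5 leaves the CM lines as the only direct contrast, and gives the same 0.75 for Klf4.

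Klf2 lies on chromosome 8, whose genes were offset in 2 of the lines. The median of chromosome 8 genes less that of other autosomal genes was 0.42 and 0.57 in LV21 at P7 and P13 and 0.41 and 0.54 in V6.5 at 0 h and 24 h, against -0.02 to 0.18 in the other 20 libraries. The part of this offset in the values of Klf2 was not tested. Its level in LV21 was 8.05 at P7 and 8.10 at P13, the highest value of each female group. In V6.5 it was 7.22 at 0 h, the lowest of the wild-type ESC lines before withdrawal.

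Among wild-type ESCs, 4.87% of all genes tested were higher in XX lines and 2.32% lower, with a median difference of -0.0147. Of 17 naive-network genes, 7 were higher in XX lines and 0 lower, with a median difference of 0.37. Nanog differed by 1.00 ± 0.08, Prdm14 by 1.34 ± 0.14, Fbxo15 by 0.89 ± 0.10 and Tbx3 by 1.14 ± 0.16. Of the formative and primed genes, 3 of 11 were lower in XX lines, namely Dnmt3b (-1.19 ± 0.18), Dnmt3a (-0.73 ± 0.13) and Sall2 (-0.97 ± 0.22). In the ERK pathway 5 of 19 were lower and 1 higher. Etv4, an ERK-responsive factor, differed by -1.25 ± 0.11, Dusp6 by -0.93 ± 0.18, Spred1 by -0.66 ± 0.09 and the X-linked Dusp9 by 1.10 ± 0.13.

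**Figure D3:**
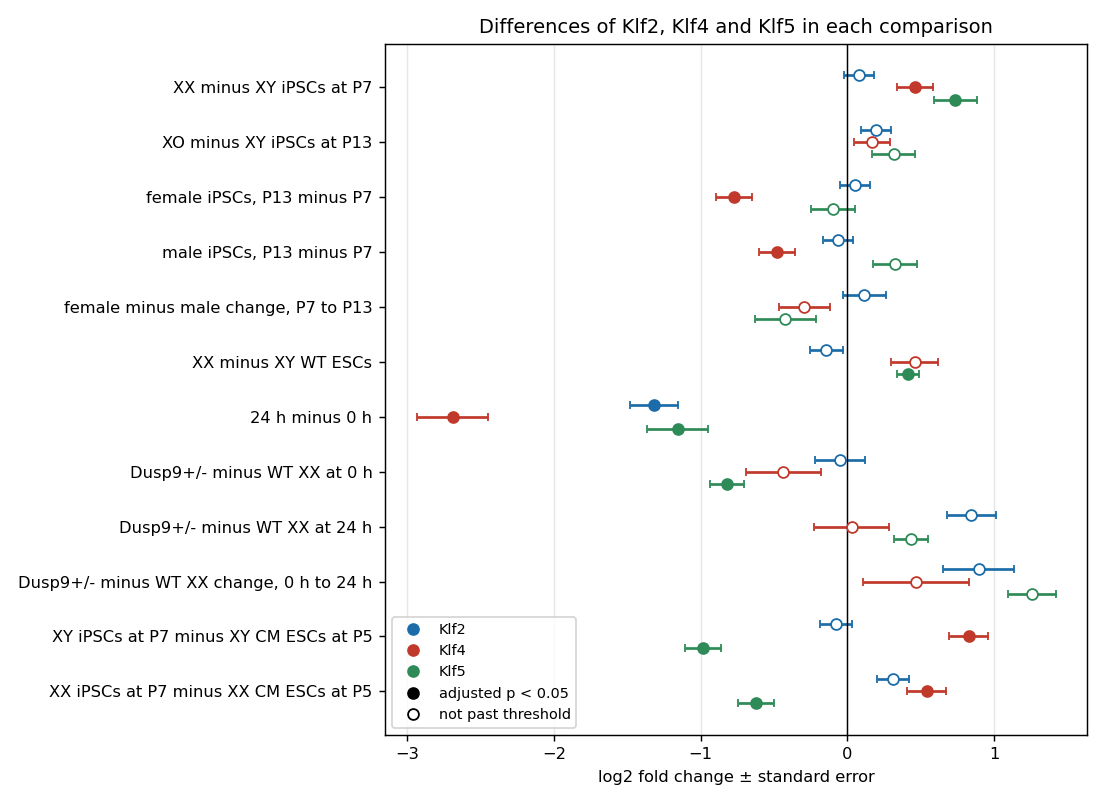
Log2 fold change with its standard error (horizontal axis) of Klf2, Klf4 and Klf5 in each of 12 comparisons (vertical axis), from limma; filled points passed an adjusted p of 0.05. The falls at 24 h without LIF stand out, with Klf4 at -2.69, and Klf4 and Klf5 lie on opposite sides of 0 between iPSCs and CM ESCs.

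The clones labelled Dusp9+/- ask what losing 1 copy of the ERK phosphatase does in XX cells. The level of Dusp9 did not set the labelled clones apart. It was 5.96 and 7.43 log2 CPM in clones 1 and 2 at 0 h and 7.71 and 6.58 at 24 h, against 6.93 and 7.84 in F121. The labels do not say which part of the gene was changed, so this level does not check the label, and the libraries are called by their labels. Deviations from the group mean were opposite in sign between times (r = -0.43 over 11511 genes), so clones of the same number did not deviate together, and the numbers may be exchanged between the times. By the numbers as labelled, X-linked output was 0.61 at 0 h and 24 h in clone 1, and 0.54 and 0.52 in clone 2. Each difference rests on 1 wild-type library, which is assumed to vary as the clones do and had a lower X-linked output than they did.

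With LIF, Klf5 was lower in the libraries labelled Dusp9+/-, at 7.60 and 7.41 against 8.33 in F121. The difference was -0.82 ± 0.12 (limma, adjusted p = 0.0236), and was not called when genes of low level were kept in (limma, adjusted p = 0.0516). Klf4 held 6.92 and 7.50 in the clones against 7.65, a difference of -0.44 ± 0.26 (limma, adjusted p = 0.296). Klf2 held 7.16 and 7.54 on either side of the 7.40 of F121, a difference of -0.05 (limma, adjusted p = 0.872). Here 1 of 3 members was called and 8.91% of all genes. After 24 h without LIF, Klf2 held 6.44 and 6.38 in the clones and 5.56 in F121, a difference of 0.85 ± 0.17 (limma, adjusted p = 0.0601). Klf5 held 6.90 and 6.87 against 6.45, a difference of 0.43 ± 0.12 (limma, adjusted p = 0.0951), and Klf4 differed by 0.03 (limma, adjusted p = 0.954). None of the 3 was called at 24 h, where 2.55% of genes were. The change over time in the clones less that in F121 was 0.89 ± 0.24 for Klf2, 0.47 for Klf4 and 1.26 ± 0.16 for Klf5 (limma, adjusted p = 0.279, 0.639 and 0.166). For that difference 0% of genes were called, with 1766 at an unadjusted p under 0.05 and 0 called by voom.

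Other sets differed between the labelled clones and F121 with LIF, where 4.81% of all genes were higher in the clones and 4.1% lower. Of 17 naive-network genes, 5 were lower, among them Nr5a2 (-1.40 ± 0.13), Fbxo15 (-1.08 ± 0.11), Tbx3 (-1.05 ± 0.14) and Nanog (-0.81 ± 0.12). Of 19 ERK-pathway genes 6 were higher and 1 lower, with Dusp6 at 1.32 ± 0.15 and Dusp4 at 1.61 ± 0.19. Immediate-early genes were higher in 11 of 19 cases, and their summed level was 2300 and 2350 CPM in the clones against 858 CPM in F121. Fibroblast and feeder markers were lower in 9 of 20 cases, at 257 and 535 CPM against 1400 CPM, and the 9 trophoblast markers summed to 288 and 483 CPM against 98 CPM. The part of these 3 sets in the difference of Klf5 was not tested. In the LIF pathway Stat3 was lower (-0.57 ± 0.11) and Socs3 higher (0.71 ± 0.15), the only 2 of 15 called.

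Early iPSCs and CM ESCs of the same X complement were also set side by side. Origin, cross and passage all differ between these groups and cannot be told apart. Klf4 was higher and Klf5 lower in the iPSCs of both complements. In XY cells Klf4 held 8.27, 8.53 and 8.56 in LV4, LV8 and LV16 at P7 against 7.71 and 7.55 in CM3 and CM7, a difference of 0.83 ± 0.13 (limma, adjusted p = 0.000824). Klf5 differed by -0.98 ± 0.12 in those cells (limma, adjusted p = 0.000133), the 3 iPSC lines at 6.67 to 7.03 and the ESC lines at 7.85 and 7.71. Klf2 differed by -0.08 (limma, adjusted p = 0.642). In XX cells the differences were 0.54 ± 0.13 for Klf4 (limma, adjusted p = 0.0122), -0.62 ± 0.12 for Klf5 (limma, adjusted p = 0.0031) and 0.31 ± 0.11 for Klf2 (limma, adjusted p = 0.0605). Within each complement the iPSC and ESC levels of Klf4 and of Klf5 did not overlap. The call for Klf4 in XX cells was lost without CM1 (0.54) or CM2 (0.54), and Klf2 was called there without LV20 (0.37). Without LV21 the XX differences were 0.27 ± 0.11 for Klf2, 0.69 ± 0.10 for Klf4 and -0.55 ± 0.12 for Klf5 (limma, adjusted p = 0.0901, 0.000188 and 0.003). In each complement 2 of 3 members were called, where 26.7% of 14106 genes were called for XY and 22.3% for XX cells.

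In the same comparisons, 13.2% of all genes were higher in XY and 11.5% in XX iPSCs, and 13.5% and 10.8% were lower. Of 19 immediate-early genes, 7 were higher in XY and 8 in XX iPSCs, and 2 were lower in each. Egr1 differed by 1.41 ± 0.16 and 2.04 ± 0.16. Of 15 LIF-pathway genes, 5 were higher and 1 lower in XY iPSCs, and 3 were higher and 2 lower in XX iPSCs. Socs3 was higher by 1.73 ± 0.19 and 1.77 ± 0.19, while Pim1 was among those lower in XX iPSCs (-0.55). Of 17 naive-network genes, 1 was higher and 6 were lower in iPSCs of each complement. Fibroblast and feeder markers were lower in 14 and 12 of 20 cases. Of the other factors commonly used for reprogramming, Pou5f1 differed by -0.56 ± 0.10 and -0.44 ± 0.10, Myc by -1.56 ± 0.25 and -1.28 ± 0.25, and Sox2 was not called.

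The rest of the KLF family gives the setting for these 3 genes. Of 14 other KLF genes listed, 12 were in the table, and 11 or 12 passed the filter on low values, depending on the libraries of the fit. At 24 h without LIF, 3 of 11 fell and 2 rose, with a median change of -0.27, where 15.9% of all genes fell and 16.8% rose. Klf11, a repressor induced by TGF-beta, changed by -1.43 ± 0.17, Klf10, its close relative, by -0.95 ± 0.10 and Klf6 by -0.97 ± 0.12. Klf7 rose by 0.63 ± 0.12. Klf12, a repressor, rose by 0.53 ± 0.17 (limma, adjusted p = 0.0439), a call not recomputed under the alternatives. Klf2 and Klf5 thus changed by amounts between those of Klf10 and Klf11, and Klf4 by more than any other tested KLF gene. Of the related SP family, 0 of 5 tested genes were called at 24 h, with a median change of 0.021.

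Klf8, the 1 X-linked KLF gene in the table, was higher in XX cells in both comparisons. It was higher by 1.29 ± 0.27 in iPSCs at P7 (limma, adjusted p = 0.0183) and by 1.00 ± 0.12 in wild-type ESCs (limma, adjusted p = 0.00279). Klf9 was higher by 0.62 ± 0.14 in XX iPSCs (limma, adjusted p = 0.025), and no other of the 12 was called there. The P7 calls for Klf8 and Klf9 were lost in 4 and 5 of 12 alternatives, while that for Klf8 in ESCs held in 11 of 11. Klf8 was lower in the clones labelled Dusp9+/- at 0 h, by a difference of -0.61 ± 0.12, and Klf6 was higher in them at 24 h, by 1.11 ± 0.15, calls lost in 2 and 4 of 6 alternatives. Klf10 fell from P7 to P13 in the female (-0.55 ± 0.12) and male (-0.79 ± 0.12) iPSCs, as Klf4 did. In the male lines Klf9, Klf13 and Klf3 rose by 0.56 ± 0.14, 0.48 ± 0.13 and 0.47 ± 0.14, calls lost in 3, 4 and 7 of 12 alternatives.

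**Figure D4:**
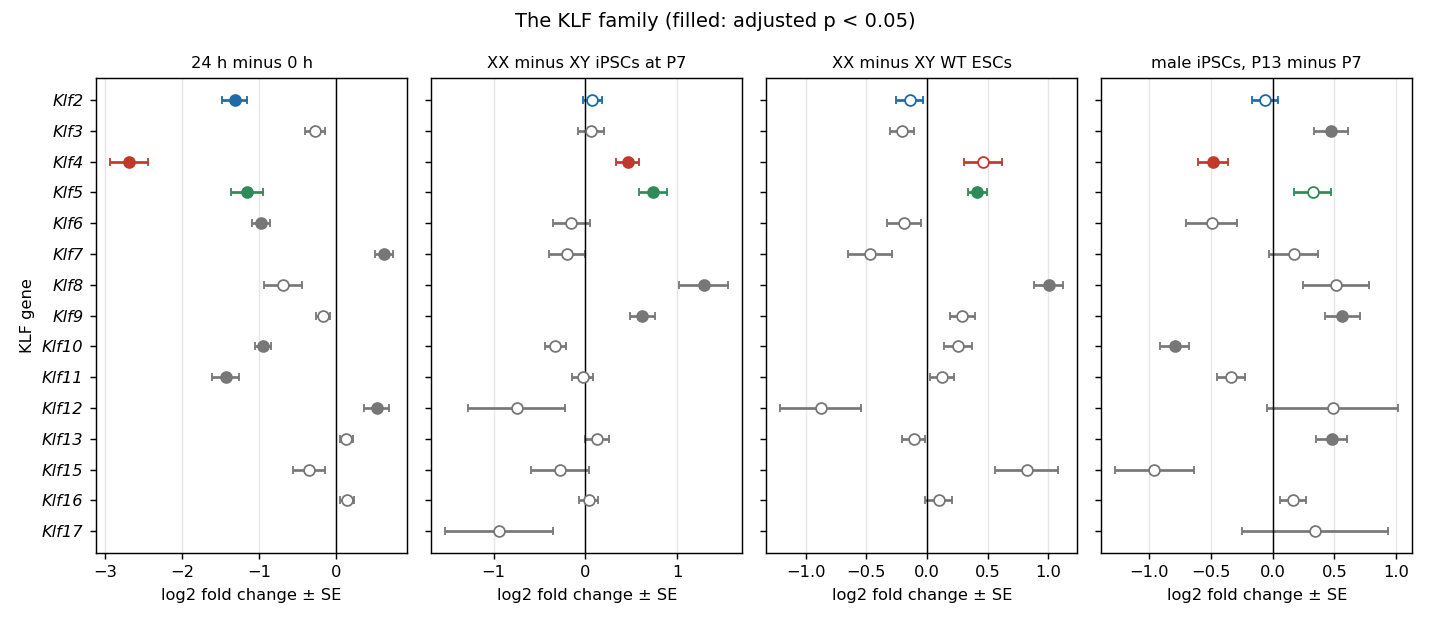
Log2 fold change with its standard error (horizontal axis, a separate scale in each panel) of each tested KLF gene (vertical axis) in 4 comparisons, with Klf2 in blue, Klf4 in red and Klf5 in green and filled points past an adjusted p of 0.05. Klf4 has the lowest value at 24 h without LIF, -2.69, and X-linked Klf8 the highest in XX against XY iPSCs, 1.29.

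Across all 24 libraries, Klf2 and Klf4 followed each other and Klf5 less so. Pearson's r of log2 CPM was 0.93 between Klf2 and Klf4, 0.49 between Klf2 and Klf5 and 0.52 between Klf4 and Klf5. The points are libraries that share lines, and the 4 libraries without LIF lie far from the rest, so these are descriptions only. Within the 12 iPSC libraries, none of which was taken after withdrawal, the 3 values were 0.22, 0.53 and 0.32. Among 11510 genes whose mean reached 4 CPM, the 5 most like Klf2 over 24 libraries were Mobp (0.94), Klf4 itself, Dap (0.91), Tmem108 (0.91) and C1qtnf6 (0.91), and the least like it was Polr3a (-0.93). The 5 most like Klf4 were Rel (0.96), Klf2, Lrrc31 (0.93), Lrrc34 (0.93) and Slc39a11 (0.93), and the least like it was the DNA methyltransferase Dnmt3a (-0.94). The 5 most like Klf5 were the naive factor Tbx3 (0.94), Zbtb44 (0.88), Yes1 (0.86), Ctif (0.85) and Mapt (0.85), with Skil the least like it (-0.94).

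Over the 12 iPSC libraries alone, other genes took those places. Kif4 (0.97), Trmt2b (0.96), Dcaf12l1 (0.96), Gna13 (0.96) and Herpud2 (0.95) were most like Klf4, and Pih1d1 (-0.97) least. For Klf5 they included Tsc22d1 (0.95), Dclre1b (0.93), Cdkn2a (0.92) and Epop (0.92), with Rbbp4 (-0.96) least like it. For Klf2 they were 1110008P14Rik (0.86), Ndufb2 (0.86), Sin3b (0.85), Terf2 (0.83) and Rbck1 (0.82), with Mtx3 (-0.82) least. X-linked output differed between these 12 libraries, from -0.55 in LV21 at P13 to 0.59 in LV22 at P7. Genes of chromosome 8, where Klf2 lies, were offset by 0.42 and 0.57 in LV21 at P7 and P13. The part of either in these correlations was not tested.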

How the data were processed

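The authors deposited 1 table of log2 CPM (library-scaled counts, log2 scale), written with decimal commas (a unit classed here as other), for 16687 genes in 24 columns. Per the submitters' processing notes, STAR 2.5.3a, featureCounts and edgeR were named with the builds GRCm38 and mm10, and their roles are not given in the sources used here. Per the labels' protocols, RNA was extracted with TRIzol, made into stranded mRNA libraries and read single-end, with more than 1 read length among the iPSC and CM libraries. Of 52 samples, 32 were RNA libraries, 8 of them technical repeats that have no column of their own, and whether these were combined is not stated; the 20 ATAC-seq samples were not analysed here.

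Each deposited column held a floor of 0.183 CPM (-2.45) plus whole multiples of 1 step, and 100% of values came out as whole reads within 0.01 read. The reads served for totals and for voom.

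Within each fit, genes averaging 1 CPM or more were tested with limma 3.58.1 in R 4.3.3 (lmFit, eBayes with a trend, two-sided), with Benjamini-Hochberg adjustment over all genes tested. A gene was called at an adjusted p under 0.05, and "rose", "fell", "higher" and "lower" of a group comparison refer to calls. The 12 iPSC libraries made 1 fit of 4 group means, the 6 wild-type ESC libraries before withdrawal another with experiment as a term, the 8 withdrawal libraries were fitted with genotype and time or with 6 means, and iPSCs at P7 with CM ESCs made the last. Scripts were tested on simulated data. Alternatives were log2(CPM + 1), no filter, voom, unscaled totals, each library left out, the line as a replicate block, and the CM lines alone.

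The lines pair the 2 passages and the 2 times, since each line was sampled at both. Deviations of the same iPSC line correlated at -0.05 to 0.16.

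The members and gene lists were chosen with earlier results of these data known. Genes named from a list are up to 4 called genes with the largest moderated t, except that Klf12 is also named at 24 h. Genes of like pattern are the 5 highest and the lowest correlation among genes averaging 4 CPM or more. Promoter sequences and positions came from RefSeq tables of GRCm38.p6, which matched 2 and 3 of the genes. One gene of like pattern is not reported here.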

Additional observations from a re-analysis of the deposited data

How the results depend on the processing

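The 3 members in 12 comparisons gave 36 differences, recomputed under 387 alternatives, of which 351 kept the direction and the side of the threshold. In the 24 h comparison every alternative run kept all 3 calls. For XX against XY iPSCs at P7, the call for Klf4 (0.46) was lost with no filter (0.462, limma, adjusted p = 0.0798) and with the spread taken from the 2 groups alone (0.462, limma, adjusted p = 0.0809), settings that test more genes or use fewer libraries. Leaving out 1 library gave -0.0198 to 0.150 for Klf2, 0.363 to 0.608 for Klf4 and 0.674 to 0.856 for Klf5. Klf2 changed sign only in differences that had not passed the test.

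With 1 library left out, the female passage change of Klf2 ran from -0.0107 to 0.0948. The male passage changes ran from -0.160 to 0.00959 for Klf2, with 0.00558 without LV16 at P13, from -0.570 to -0.425 for Klf4 and from 0.165 to 0.508 for Klf5. For wild-type ESCs the ranges were -0.306 to -0.0514 for Klf2, 0.333 to 0.748 for Klf4 and 0.377 to 0.466 for Klf5, and the CM lines alone gave -0.306 for Klf2 and 0.748 for Klf4. For the clones labelled Dusp9+/- they were -0.239 to 0.142 for Klf2 at 0 h and -0.128 to 0.186 for Klf4 at 24 h, unscaled totals gave 0.0245 for Klf2 at 0 h, and no filter gave -0.822 for Klf5 at 0 h, no longer called. Between iPSCs at P7 and CM ESCs they were -0.147 to 0.0226 for Klf2 in XY cells, and 0.227 to 0.391 for Klf2 and 0.440 to 0.685 for Klf4 in XX cells, where unscaled totals gave 0.327 for Klf2 (limma, adjusted p = 0.0468). Beyond what is stated, the cause was not tested. Leaving out F121 at 0 h or at 24 h gave no value for the Dusp9+/- comparisons.

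Fitted with the line as a replicate block, the change in Klf4 was -0.773 in the female lines (limma, adjusted p = 0.006), -0.479 in the male lines (limma, adjusted p = 0.0231) and -2.69 at 24 h without LIF (limma, adjusted p = 0.00319), and the block changed no call of the 3 members. The count of genes called for the sex difference in passage change went from 0 to 11 with it. With the clone numbers crossed, chosen after seeing the data, 754 genes were called for the Dusp9+/- difference in change over time, against 0.

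Counts of all genes called moved more. Leaving out 1 library gave 44 to 1727 against 668 (XX and XY iPSCs at P7), 174 to 2079 against 1258 (female passage), 429 to 2198 against 1823 (male passage), 208 to 1682 against 1020 (wild-type ESCs), 3086 to 4158 against 4688 (24 h), 1610 to 1953 against 1277 and 1 to 104 against 366 (Dusp9+/- at 0 h and 24 h), 2136 to 3332 against 3760 and 1279 to 3606 against 3149 (iPSCs and CM ESCs, XY and XX). With LV21 (P7) and LV22 (P13) left out, 1818 genes were called for XX against XY at P7 and 364 for the sex difference in passage change. With no filter 200 and 0 genes were called for Dusp9+/- at 0 h and 24 h, voom called 16 at 24 h, and the CM lines alone 1690. The members had 192 to 6133 reads in a library, and each group held 1 to 3 libraries. Of 156 calls of single genes named from the lists, 85 held under every alternative run, among them all 25 at 24 h without LIF, and 71 were lost in at least 1, among them 8 of 9 for XX against XY iPSCs at P7 and 7 of 7 for Dusp9+/- at 24 h.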
